A study of Mus musculus with 4 samples.

Results

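Of the 40909 circular RNAs (circRNAs) listed for primary mouse articular chondrocytes, 849 (2.08%) crossed a gene boundary: the stretch of genome between their 2 ends overlapped at least 1 RefSeq gene of mm10, the mouse assembly used, but was contained in none, with 1 bp of tolerance. A further 39751 lay inside at least 1 gene and 309 lay outside any gene. Articular chondrocytes build and keep up the cartilage of the joint surface. The cells were at passage 1 to 3, per the labels. The IL-1β group held 2 libraries from cells given recombinant human interleukin-1β (an inflammatory signal of the arthritic joint) at 10 ng/ml for 24 h. The control group held 2 libraries. Whether the libraries within a group stem from different animals or cultures is not in the labels, so a p-value here reflects the spread among these 4 libraries, possibly only technical.

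A circRNA forms when a splice donor is joined backwards to a splice acceptor that lies upstream of it in the same transcript, a reaction called back-splicing. The join is read as a back-splice junction, and the junction read count is the measure used here. Most circRNAs are made from exons of a single gene. A circle that crosses a boundary has an end in sequence that the annotation does not give to that gene: past the 3′ end where transcription is expected to stop, before the 5′ end where it is expected to start, or in a neighbouring gene. Such circles can come from transcripts that read through into the next gene, or from exons that the annotation lacks, and the junction reads alone do not tell these apart.

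The bases beside the junctions could be read for 26 ends of boundary-crossing circles, those that fell in RefSeq's promoter windows of mm10 (250 bases before to 50 after a gene's start). The search was for AG directly before the acceptor end and GT directly after the donor end, on the strand of the circle and at that place only. Ends were counted per circle: circRNA.32340 and circRNA.32350 share an acceptor, and circRNA.31810 and circRNA.31817 share a donor. All 26 ends (21 acceptors and 5 donors) had these bases, as did 434 of 444 ends (97.7%) of circles inside genes in the same windows. A few are printed 5′ to 3′ on the circle's strand, with the AG or GT in capitals, because they show the sequence at such ends. The first 4 lie outside any annotated gene and the last 2 within one. The Scd4 end (a stearoyl-CoA desaturase gene, chr19:44333216-44333245) lay 90 bp before the gene, the Zfp652 end (a zinc finger gene, chr11:95748980-95749009) 67 bp before it and the Gm30293 end (chr3:83727388-83727417) 30 bp before it. The Lncpint end (chr6:31220191-31220220) lay 1726 bp before its gene, and the Irak3 end (chr10:120202082-120202111) lay within that gene but on the opposite strand. The Gm14502 end (chrX:8844112-8844141) is a donor within that gene, whose circle has its acceptor outside.
Scd4 acceptor, circRNA.16926: tctttatcccttgttggcAGtcatgaagca
Zfp652 acceptor, circRNA.5052: atttttttttctctttatAGacaagatgct
Gm30293 acceptor, circRNA.25117: ccccactgttctgacttcAGtccattccag
Lncpint acceptor, circRNA.32340: taaactccctctttgcccAGggcaagccga
Irak3 acceptor, circRNA.272: ctccctttctttcctcgcAGtgcttcaacg
Gm14502 donor, circRNA.41478: ccaccttctgGTaagtcattctacagtggc

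The spans also held whole microRNA genes: 45 of the 849 circles held 25 such genes, with 1595 junction reads in all. A microRNA acts through its seed, bases 2 to 8 of the mature strand, which pairs with target messages. The mature sequences of the 3 microRNA genes held by the most circles follow, from RefSeq, with the seed in capitals. The file gives only the junction of a circle, so whether the microRNA sequence is kept in the circle is not known. No pair of these strands shares a seed.
miR-107-3p (chr19:34820700-34820722, minus strand): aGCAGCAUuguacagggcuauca
miR-107-5p (chr19:34820737-34820759, minus strand): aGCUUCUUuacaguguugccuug
miR-344f-3p (chr7:62046183-62046203, minus strand): cUCUAGCCaggaccugacuac
miR-344f-5p (chr7:62046225-62046246, minus strand): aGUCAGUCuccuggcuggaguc
miR-344i (chr7:62085281-62085300, minus strand): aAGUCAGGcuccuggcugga

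Boundary-crossing circRNAs carried 27849 of the junction reads, 0.651% of those in the 4 libraries. Library totals were 895774 and 980542 junction reads with IL-1β and 1198010 and 1203855 for the controls. Crossing circles took 0.695% (95% Wilson interval 0.678 to 0.713) and 0.638% (0.623 to 0.654) of the reads in the IL-1β libraries, and 0.638% (0.624 to 0.652) and 0.641% (0.627 to 0.656) in the controls. These intervals, and the limits used for empty groups, reflect counting error alone, as PCR copies of a molecule are read repeatedly. The group means were 0.667% ± 0.0406 (SD, n = 2) with IL-1β and 0.640% ± 0.00263 in controls. The difference of 0.0272 percentage points rested on IL-1β 1, was reversed to -0.0015 without that library, and had a two-sided exact permutation p of 0.667, where 2 against 2 libraries cannot go below 0.333. Reads were concentrated in few circles: the most-read one held 21.1% of the crossing reads, the first 2 held 38.3% and the first 10 held 54.4%.

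Most crossing circles were seen in 1 library only. This held for 685 of 849 (80.7%), against 58.6% of all circRNAs, and 42 crossing circles were read in all 4 libraries. The median crossing circle had 8 reads over the 4 libraries, and 713 had fewer than 20. Spans ran from 399 bp to 441396 bp, with a median of 27327 bp.

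Compared within each library, crossing circles spanned more genome and had fewer reads than circles inside genes. The median span was 24752 and 26053.5 bp in the IL-1β libraries and 30132 and 27007.5 bp in the controls, against 10202 to 10950 bp for circles inside genes. The median reads of a circle were 8 and 8 with IL-1β and 7 and 11 in controls, against 12 to 16 for circles inside genes. Of the crossing circles read in a library, 31.5% and 29.3% (IL-1β) and 24.9% and 29.1% (control) were also read in the other library of the group, against 48.3% to 56.8% of circles inside genes. Each of these 3 differences had the same direction in 4 of 4 libraries, with an exact paired permutation p of 0.125, the smallest that 4 libraries allow. The rule itself favours the span difference, as a longer stretch is less likely to lie within a gene. The p-value for span is therefore no support. Among circles with at least 20 reads in the library, the share read in the other library was 97.2% and 78.4% (IL-1β) and 84.8% and 72.3% (control) for crossing circles, against 83.1% to 91.5% for the others. That difference was positive in 2 libraries and negative in 2, with an exact paired permutation p of 0.5, so a lower share among circles of that depth was not detectable.

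**Figure D1:**
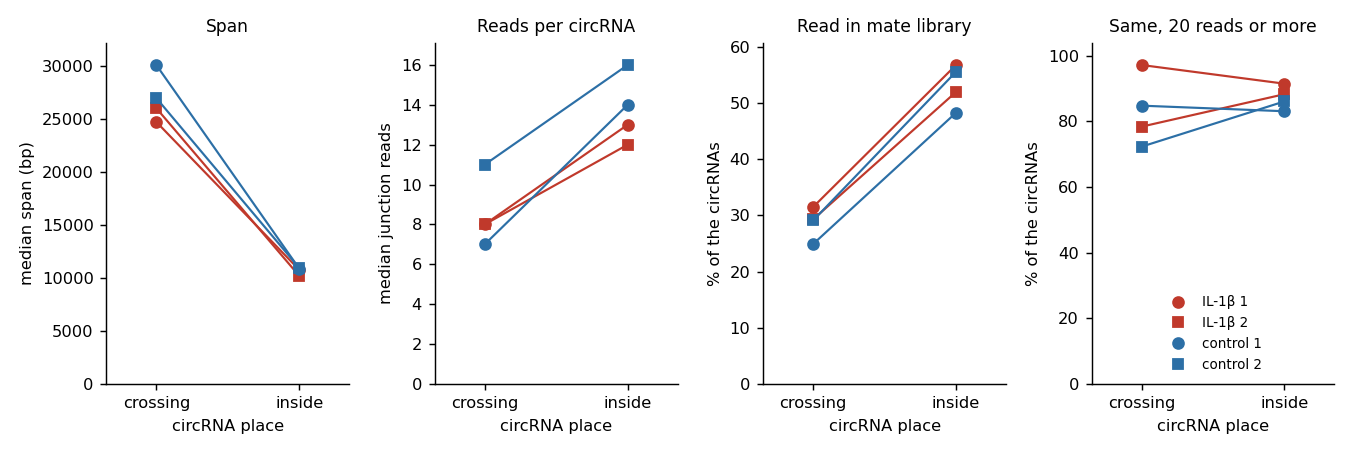
Median span in bp, median junction reads per circRNA, and the percentage of circRNAs of a library that were also read in the other library of its group (all circRNAs, then those with at least 20 reads in the library), for boundary-crossing circRNAs and for circRNAs inside a gene; each line is 1 library. The first 3 panels slope the same way in all 4 libraries, while in the last panel 2 lines go each way.

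By the place of their ends the circles fell into 3 classes. In 473 circles (55.7%, with 61.4% of the crossing reads) 1 end lay in a gene and the other outside any gene. In 321 (37.8%, with 35% of the reads) the ends lay in 2 different genes. In 55 (6.48%, with 3.59% of the reads) both ends lay outside genes and the circle held 1 or more whole genes. The median span was 21770 bp, 30731 bp and 41671 bp in that order of classes. The 3 classes took similar shares of reads in the 4 libraries: 0.379% to 0.429%, 0.214% to 0.241% and 0.0183% to 0.0287% of all junction reads.

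**Figure D2:**
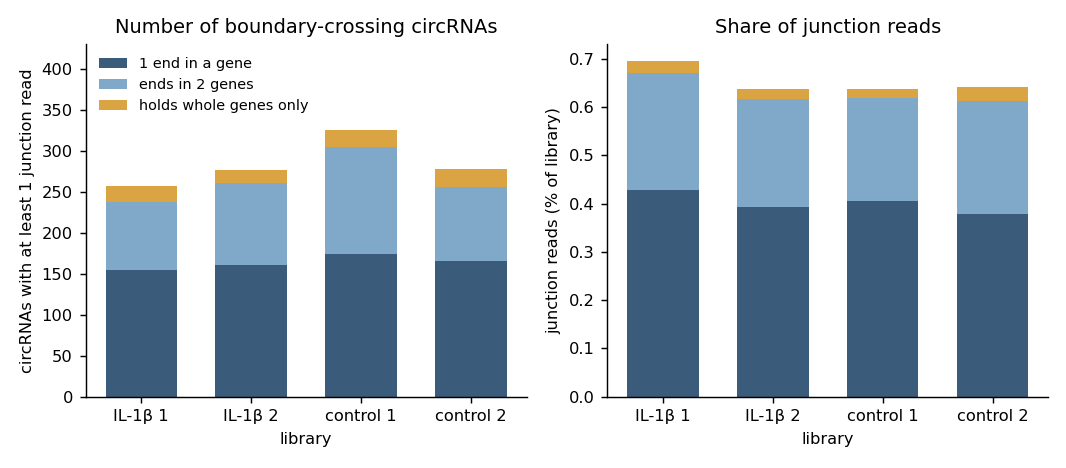
Number of boundary-crossing circRNAs with at least 1 junction read (left) and their share of all junction reads of the library in percent (right), by library, with bars stacked by the place of the ends. Circles with 1 end in a gene made up the largest part of each bar, 155 to 174 circRNAs and 0.379% to 0.429% of the reads.

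Circles with 1 end in a gene kept to the strand of that gene and left it more often at its 3′ end. Gene strand was known for 424 of the 473, and 390 of these (92.0%) lay on the strand of the gene, against 99.5% of circles inside genes. Of the 390, 251 had their donor past the 3′ end of the gene and 139 had their acceptor before its 5′ end. Counted per library, the donor type came to 81 and 89 circles with IL-1β and 105 and 96 in controls, against 48 and 43, and 43 and 45, of the acceptor type. In reads the gap was wider, 13899 against 2017, and 8009 against 2017 without the most-read circle. All 3 comparisons went the same way in 4 of 4 libraries, with an exact paired permutation p of 0.125, the smallest possible.

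The outside end was often far from the gene. It lay within 1000 bp of the gene edge in 124 of 473 circles (26.2%) and more than 10000 bp away in 199 (42.1%), with the farthest at 177738 bp. The median distance was 6071 bp for donors past the 3′ end and 6702 bp for acceptors before the 5′ end. At the limit of the rule, 4 circles that left Baiap2, Plec or Gtf2f1 by 1 bp (3 to 8 reads each) counted as inside, and circles 2 bp outside Gm31992, Eif6 and Hoatz (3 to 12 reads) counted as crossing.

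**Figure D3:**
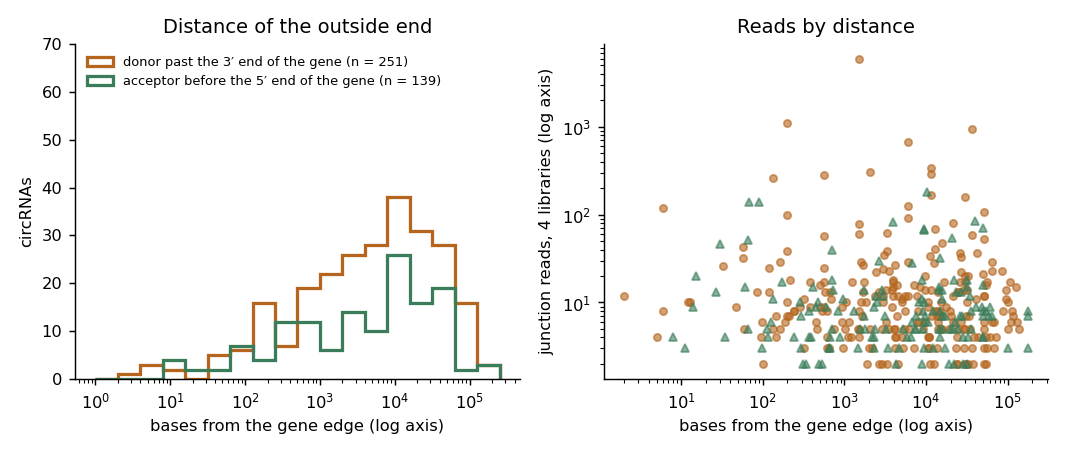
Bases between the outside end and the edge of the gene (log axis) for the 390 circRNAs with 1 end in a gene on the circle's strand, as the number of circRNAs per bin (left) and against their junction reads over 4 libraries (right, both axes log). Donors past the 3′ end (n = 251) outnumber acceptors before the 5′ end (n = 139), and both groups centre far from the gene, with medians of 6071 and 6702 bp.

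The 321 circles with ends in 2 genes linked 271 pairs of genes, 240 of them by a single circle, and in 219 of the 321 no other gene lay between the pair. Of these 219 circles, 165 had both strands known, and in 98 of the 165 (59.4%) both genes were on the circle's strand. Where the genes did not overlap, the median gap was 6005.5 bp, and in 55 circles the genes overlapped. Over all circles with both strands known, with or without a gene between, both genes were on the circle's strand in 165 of 246 (67.1%). Of neighbouring coding or lncRNA genes of the annotation, 46.4% share a strand. The set nearest to that is the circles with no gene between, at 59.4%. An end within several genes counted as on the circle's strand if any of them was. In 80 circles 1 gene was on the circle's strand and the other was antisense, and the sense gene held the acceptor in 62 of them (77.5%). Neighbours on opposite strands lie tail to tail in 50% of cases in the annotation. These shares are descriptions, since circles that join the same genes are not independent. Neighbours whose symbols share a stem (the letters before the first digit) were linked in 17 circles, among them Etv3 and Etv3l (ETS transcription factors), Tubg1 and Tubg2 (γ-tubulins), Aph1c and Aph1b (γ-secretase subunits) and 4 pairs of zinc finger genes. These circles had 2 to 23 reads each, and the placing of reads shared by near-identical copies is not described in the labels.

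An end was often shared with circles inside a gene: 349 of the 849 (41.1%) used at least 1 end position that a circle inside a gene also used, and 20 did so at both ends. The ends lay in 876 genes, 667 coding and 194 lncRNA genes, and 716 of these genes had a single crossing circle. Of the 876 genes, 503 (57.4%) also had circles inside them, and in these crossing circles held a median of 7.69% of the gene's circRNA reads. In 13 genes with circles inside and at least 100 reads, crossing circles held more than 50% of the reads. They included Zbtb38, Pum3, Zfp652 and the endonuclease/exonuclease/phosphatase family gene Eepd1, and the lncRNA genes E030011O05Rik, E230016M11Rik and Gm30215.

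Rnf217, a RING-type ubiquitin ligase gene, gave the most-read crossing circle. circRNA.801 (chr10:31500379-31534896, minus strand) counted 1615 and 1464 reads with IL-1β against 1724 and 1087 in controls. Its acceptor lay in Rnf217 and its donor 1508 bp past the gene's 3′ end. As CPM (library totals scaled with TMM factors), its level was 1638 ± 194 CPM with IL-1β and 1183 ± 414 in controls (SD, n = 2 each). In CPM both IL-1β libraries were above both controls, with control 1 only just below IL-1β 2. The acceptor was shared with circRNA.808 inside the gene, which counted 1050 and 1336 reads with IL-1β against 898 and 1008 in controls, or 1262 ± 152 CPM against 797 ± 39.9. In all, 4 crossing circles used this donor, with 6033 reads against 7031 in 9 circles inside Rnf217.

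Zbtb38 encodes a zinc finger protein that binds methylated DNA, and its neighbour E030011O05Rik is a lncRNA gene on the same strand. The annotated genes overlap by 101 bp, and 9 circles with 6030 reads joined them. The main one, circRNA.40505 (chr9:96718210-96732313, minus strand), counted 1076 and 1188 reads with IL-1β against 1212 and 1292 in controls. That is 1200 ± 24.7 CPM with IL-1β and 1048 ± 14.2 in controls, 1.15-fold higher with IL-1β and without overlap, at an edgeR adjusted p above the threshold. With depth taken from SRPBM the direction turned, to a log2 change of -0.03. circRNA.40510, 1022 bp long with the same acceptor, counted 142 and 92 reads with IL-1β against 140 and 160 in controls, and its groups overlapped. circRNA.40506, with the same donor as circRNA.40505 and an acceptor at the far end of E030011O05Rik, had 68 and 45 against 48 and 137 reads. Inside the genes there were only 8 reads for Zbtb38 and 23 for E030011O05Rik, so crossing circles held 99.9% and 99.6% of the reads.

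Lncpint, a long noncoding RNA gene known as a target of p53, had the most crossing circles, 16 with 2331 reads, beside 25 circles and 6538 reads inside it. Of these, 13 had their donor past the 3′ end, at 4 positions 200, 5070, 6071 and 12698 bp from it, and 3 had their acceptor before the 5′ end. circRNA.32324 (chr6:31093363-31181149, minus strand), with its donor 200 bp past the end, counted 147 and 238 reads with IL-1β against 340 and 385 in controls, or 203 ± 58.2 CPM against 303 ± 17.0. circRNA.32317, with the same acceptor and its donor at 6071 bp, counted 106 and 138 reads with IL-1β against 186 and 239 in controls. In CPM both were lower in each IL-1β library than in each control. circRNA.32318, with that donor and another acceptor, went apart: it counted 15 and 8 reads with IL-1β against 5 and 97 in controls. circRNA.32336 inside the gene, which shares the acceptor of circRNA.32324, counted 310 and 314 reads with IL-1β against 345 and 369 in controls, which in CPM was 331 ± 13.4 against 299 ± 4.76, higher in both IL-1β libraries. circRNA.32337, a neighbour with more reads, counted 494 and 782 with IL-1β against 855 and 456 in controls, and its groups overlapped in CPM.

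Pank1 encodes a pantothenate kinase, the entry enzyme of coenzyme A synthesis, and miR-107 is encoded within it. Of its 7 crossing circles (836 reads), 3 with 797 reads had their donor 11320 bp past the 3′ end of Pank1, and the donors of the other 4 lay 29803 to 55242 bp past it. All 7 held the Mir107 gene whose strands are printed above. circRNA.16481 counted 45 and 69 reads with IL-1β against 157 and 65 in controls, and the groups overlapped in CPM. circRNA.16482 counted 53 and 44 reads with IL-1β against 102 and 94 in controls, both lower with IL-1β. Inside Pank1, 12 circles held 8122 reads, of which circRNA.16489 had 430 and 503 with IL-1β and 988 and 784 in controls, or 494 ± 30.3 CPM against 744 ± 144.

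E230016M11Rik, a lncRNA gene, and Pum3, a gene of the Pumilio family of RNA-binding proteins, complete the most-read group. circRNA.33055 of E230016M11Rik (chr6:67077248-67116767, plus strand) ended 36115 bp past the gene and counted 162 and 212 reads with IL-1β against 326 and 236 in controls. circRNA.16270 of Pum3 (chr19:27386618-27399821, minus strand) ended 2080 bp past the gene and counted 62 and 46 reads with IL-1β against 122 and 74 in controls. Both overlapped between groups in CPM. Each outweighed the circles inside its gene, which held 270 reads for E230016M11Rik and 69 for Pum3.

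**Figure D4:**
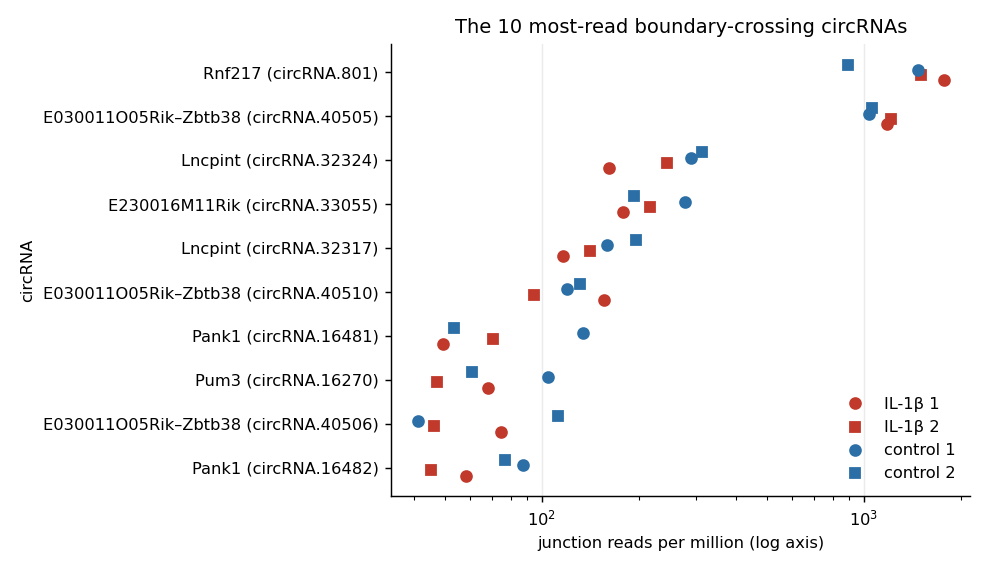
Junction reads (CPM, log axis) of the 10 most-read boundary-crossing circRNAs in each of the 4 libraries, red for IL-1β and blue for control. The Rnf217 and Zbtb38 circles lie near 1000, several-fold above the other 8, and the groups overlap for 5 of the 10. Of all tested circRNAs, 16.4% had both IL-1β libraries above both controls and 17.2% had both below.

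Several circles left a coding gene by a short way. circRNA.37724 of Prmt9, an arginine methyltransferase gene, had its donor 6 bp past the 3′ end, with 14 and 21 reads with IL-1β against 64 and 21 in controls. circRNA.34035 of Rras2, a RAS-family gene, ended 135 bp past it, with 77 and 46 against 65 and 74 reads, and circRNA.22466 of Spopl, a ubiquitin ligase adaptor gene, 557 bp past it, with 80 and 62 against 77 and 66. All 3 overlapped between groups. In Rras2 and Spopl crossing circles held 7.34% and 9.71% of the gene's circRNA reads, and in Prmt9 37.8%.

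On the 5′ side, the Scd4 and Zfp652 circles whose acceptors are printed above had 139 reads each. The Scd4 circle counted 20 and 13 reads with IL-1β against 39 and 67 in controls, lower in both IL-1β libraries, and no circle lay inside Scd4. The Zfp652 circle counted 27 and 18 against 34 and 60 reads and overlapped in CPM, beside 62 reads inside the gene. circRNA.10948 of the lncRNA gene Lncppara had its acceptor 10236 bp before the gene, with 24 and 36 against 35 and 85 reads, and all 5 crossing circles of Lncppara (243 reads) stood without any circle inside it. Ide, the gene of an insulin-degrading protease, had 2 circles with acceptors 9482 bp before it, with 36 and 42 against 45 and 12 reads, beside 5250 reads inside the gene.

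On chromosome 7 a run of circles held the Mir344f or Mir344i genes. There were 17 such circles with 599 reads, 24830 to 82913 bp long, all with both ends outside any gene, and their donors clustered at a few positions. Summed, they counted 132 and 160 reads with IL-1β against 133 and 174 in controls, or 155 ± 13.4 CPM against 128 ± 20.2. circRNA.35350 (chr7:62063933-62094678, minus strand), which held Mir344i, counted 47 and 49 reads with IL-1β against 28 and 54 in controls. The donor at position 62019949 was used by 8 crossing circles, the most for any single position. The miR-344 genes are a family of related copies, and how their shared reads were placed is not described in the labels.

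The other gene pairs with the most reads had far fewer than Zbtb38. Eipr1, which encodes a partner of a tethering complex, was joined to the lncRNA gene Gm31508, 42734 bp away, by 3 circles with 35 and 56 reads with IL-1β against 62 and 103 in controls. Eif4h, a translation initiation factor gene, and Lat2, 88 bp apart, shared 1 circle with 67 and 19 reads with IL-1β against 11 and 33 in controls. Rpe was joined by 2 circles to an end that lies in both Gm46093 and Kansl1l, with 27 and 38 against 31 and 27 reads. Eef1akmt2 and Fam53b were joined by 3 circles with 0 and 27 against 35 and 45 reads, and Aebp2, a gene of a Polycomb cofactor, and Gm30215 by 5 circles with 45 and 20 against 36 and 0 reads. In CPM the groups did not overlap for Rpe with Gm46093 and Kansl1l, which lay higher with IL-1β, nor for Eef1akmt2 and Fam53b, which lay lower. They overlapped for the other pairs of this paragraph.

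After Lncpint with 16 crossing circles, 3 genes had 9 each: Zbtb38, E030011O05Rik and Insig2, a regulator of sterol synthesis. The Insig2 circles held only 86 reads, 6 and 25 with IL-1β and 47 and 8 in controls, and 7 of the 9 were read in a single library. Cobl, an actin nucleator gene, Pank1 and Gm30215 had 7 each, and the Cobl circles held 238 reads, most on the strand opposite to the gene.

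The longest circle with at least 20 reads, circRNA.39255 (chr9:41327283-41528200, 200918 bp), had its donor in Mir100hg, the host transcript of a microRNA cluster, and its acceptor 49243 bp before the gene, with 20 and 12 reads with IL-1β against 26 and 13 in controls. circRNA.39046 joined Bbs9, a ciliary trafficking gene, to Gm36743 over 162247 bp, with 0 and 14 against 18 and 40 reads. circRNA.31812 left Dera, a deoxyribose-phosphate aldolase gene, by 64560 bp, with 0 and 12 against 0 and 11 reads. The fourth was circRNA.32318 of Lncpint at 110360 bp, given above.

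The comparison of IL-1β with control asked which circles changed with the cytokine. Only 136 of the 849 crossing circles (16%, against 37.5% of all circRNAs) had the 20 reads needed for the test, so the counts below leave out most members. By edgeR (quasi-likelihood test, adjusted p under 0.05) none was called, where 3 of 15333 tested circRNAs (0.0196%) passed. The smallest adjusted p among the 136 was 0.886. Before adjustment 2 passed (1.47%, against 3.44% of all), both higher with IL-1β (against 1.83% of all) and none lower (against 1.62% of all), and DESeq2 called 1 of the 62 to which it gave an adjusted p (1.61%, against 1.08%). Both IL-1β libraries lay above both controls in 24 of 136 (17.6%, against 16.4% of all) and below in 23 (16.9%, against 17.2%). The median log2 change was -0.189, against -0.0462 for all tested circRNAs, also with circles at 0 in a group set at their bounds. Above 0 were 61 of 136 (44.9%, against 48.3% of all). The median became 0.0622 without control 2. It was -0.733 over the 339 members with at least 10 reads (-0.187 for all circRNAs at that limit) and -0.947 over the 849 with no limit (-0.110 for all). Of the 849, 80.7% were read in 1 library only, against 58.6% of all circRNAs. Their fitted changes rest on an empty group and are no size, so these 2 medians do not measure a fall with IL-1β.

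Among the tested circles, 31 (22.8%, against 15.8% of all) had no read in 1 of the groups. Of these 31, 20 had none with IL-1β, against 1557 of 2427 for all tested circRNAs. For the 31 crossing circles, folds are bounds for the empty group only and leave out the spread of the group with reads. They set the mean of the group with reads against 3 reads in each library of the empty group. That averages 3.19 CPM with IL-1β and 2.51 CPM in controls. Since 12 of the 136 were read in 1 library only, an empty group of 2 libraries is not a limit on the true change.

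**Figure D5:**
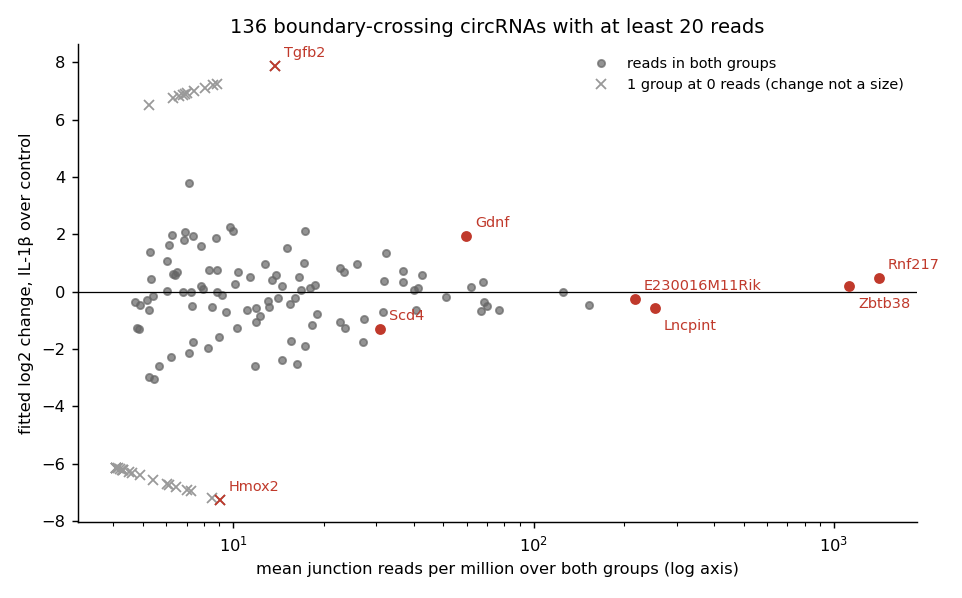
Fitted log2 change with IL-1β over control against the mean level (CPM, log axis) for the 136 tested boundary-crossing circRNAs; crosses mark circles with no read in 1 group, whose fitted change depends on the prior count and is no size. Among circles with reads in both groups, the Gdnf circle stands high for its level, and the most-read circles lie near 0.

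The lowest p among crossing circles belonged to a circle antisense to Gdnf, a gene of a growth factor for neurons. circRNA.10667 (chr15:7835107-7839500, minus strand) counted 72 and 107 reads with IL-1β against 21 and 38 in controls. Both IL-1β libraries were above both controls, at 94.4 ± 21.6 CPM against 24.5 ± 9.28 (SD, n = 2). The level was 3.85-fold higher (log2 change 1.94, SE 0.53), with an unadjusted p of 0.01 and an adjusted p of 0.886 by edgeR, and an adjusted p of 0.0411 by DESeq2. Its donor lay within Gdnf on the other strand and its acceptor 1920 bp from the gene, and no circle lay inside Gdnf.

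Tgfb2 encodes transforming growth factor β2, a growth factor of cartilage and other tissues. circRNA.18926 (chr1:186610241-186632810, minus strand) ran from Tgfb2 into Gm35546, a lncRNA gene on the other strand 8277 bp away. It counted 37 and 14 reads with IL-1β against 0 and 0 in controls. Its IL-1β mean, 27.5 ± 18.6 CPM (SD, n = 2), was 11-fold the limit used for the empty controls. Its unadjusted edgeR p was 0.0202 and its adjusted p 0.886, and its DESeq2 adjusted p was 0.0751. Inside Tgfb2, circRNA.18928 also had no control read, with 49 and 19 reads with IL-1β, while circRNA.18927, which shares the acceptor of the crossing circle, had 0 and 17 against 0 and 8. The other circles with the lowest p among those higher with IL-1β also had no control read. They were circRNA.12647 of 2700054A10Rik (19 and 13 reads), circRNA.40935 between A230072E10Rik and Wnk3, a kinase that controls ion transport (6 and 28), circRNA.31861 between Aebp2 and Gm30215 (22 and 8), and circRNA.30337 between Rnf4, a ubiquitin ligase for SUMO-marked proteins, and Fam193a (14 and 12). Their bounds ran from 5.51-fold to 7.03-fold, and none passed at an unadjusted p of 0.05. A230072E10Rik and Wnk3 lie on opposite strands, and no circle lay inside Wnk3.

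On the lower side, 5 of the 6 circles with the lowest p had no read with IL-1β. circRNA.12211 (chr16:4762559-4774005, plus strand) ran from Hmox2, a heme oxygenase gene, into Cdip1 on the other strand and had 25 and 18 control reads. Its control mean was 5.67-fold the limit used for the empty IL-1β group. The circle inside Hmox2 with the same acceptor, circRNA.12210, counted 44 and 38 reads with IL-1β against 54 and 42 in controls, or 43.7 ± 6.66 CPM against 40.3 ± 8.38. circRNA.32313 of Lncpint, with its donor at 12698 bp, had 12 and 29 control reads. circRNA.12009 of the vesicle transport gene Sec22a had 7 and 28, circRNA.18148 of Rnf2, a Polycomb ubiquitin ligase gene, had 7 and 27, and circRNA.812, which holds Gm8793, had 11 and 20. For Rnf2 the circle inside the gene with the same acceptor counted 417 and 571 reads with IL-1β against 534 and 544 in controls, which in CPM was 522 ± 89.7 against 451 ± 8.34. Bounds for these 4 ran from 4.05-fold to 5.34-fold. The remaining one was circRNA.32324 of Lncpint, 1.49-fold lower, with an unadjusted p of 0.108.

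Summed by gene pair or gene edge, the crossing circles gave 648 loci, of which 123 had at least 20 reads. None of the 123 passed edgeR at an adjusted p of 0.05 (0.0% of 5095 loci of all kinds passed). Before adjustment 6 passed (4.88%, against 4.57% of all), and DESeq2 called 2 of 70 (2.86%, against 1.02%). The DESeq2 calls were the Gdnf edge (72 and 111 reads with IL-1β, 21 and 38 in controls, adjusted p 0.0472) and the Tgfb2 and Gm35546 pair (adjusted p 0.0428). That pair held only circRNA.18926, whose DESeq2 adjusted p among circRNAs was 0.0751. The counts were the same, but loci and circRNAs were fitted and adjusted apart. The unadjusted edgeR p also differed, 0.0125 as a locus and 0.0202 as a circRNA. Lncpint donors past the 3′ end, 332 and 476 reads with IL-1β against 697 and 801 in controls, were 1.47-fold lower, with an unadjusted edgeR p of 0.0429. The circles inside Lncpint summed to 1420 and 1745 CPM with IL-1β against 1590 and 1379 in controls, and the groups overlapped. The remaining 3 were Wnk3 with A230072E10Rik (10 and 28 reads, 0 and 0 in controls), Rnf4 with Fam193a (23 and 12 reads, 0 and 0) and Hmox2 with Cdip1 (0 and 0, 25 and 18 in controls).

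Of all 49980 genes, 876 (1.75%) were at an end of a crossing circle, and of the coding genes 3.05%. Of 27 genes from the IL-1 receptor to NF-κB, 3 (11.1%) were: Irak3, which restrains the receptor complex, Chuk, an IκB kinase gene, and Nfkbiz, an IκB family gene that IL-1β is known to induce. Nxpe3 was joined to Nfkbiz by 2 circles with 17 and 6 reads with IL-1β against 0 and 0 in controls, each too low for the test. Their sum had an unadjusted edgeR p of 0.0897 and an adjusted p of 0.885. Circles inside Nfkbiz counted 36 and 0 reads with IL-1β against 24 and 0 in controls. The Irak3 circle had 6 reads in IL-1β 2 only and the Chuk circle 5 in control 1 only. The Irak3 circle lay on the strand opposite to Irak3, and the same end also lay in Gm38500. Among 20 genes of matrix proteases and their inhibitors only Timp2 appeared, with 4 reads in control 2. None of 24 cartilage matrix genes and none of 21 genes of RNA 3′-end processing did, and of 419 Zfp genes 23 were at an end.

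The circRNAs inside marker genes gave a partial check of the cell type. Of 14 chondrocyte markers, 3 had circRNA reads (Sox5, Sox6 and Hapln1), and Col2a1, Acan and Sox9 had none. Of 9 fibroblast or synovial markers 6 had reads, summing to 80 and 73 reads with IL-1β against 174 and 241 in controls, while the chondrocyte list summed to 243 and 317 against 481 and 277. Runx2 was the only one of 6 osteoblast markers with reads, and macrophage, endothelial and smooth muscle markers had 1 gene each. A circRNA count says little about the level of the linear message, and the part of cell type in the results above was not tested.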

How the data were processed

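Per the labels' protocols, the RNA of the 4 libraries was cleared of ribosomal RNA and treated with RNase R, which removes linear RNA, and the libraries kept strand. Bowtie2 and mm10 appear in the submitters' processing notes. The circRNA caller is not given in the sources used here. For every circRNA the deposited columns are raw junction read counts and SRPBM, a signal scaled for depth by the authors, per the file headers. Controls carry the treatment text of the other samples, so groups come from the source label.

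Ends were placed in 49980 RefSeq genes of GRCm38.p6 (mm10). Gene strand came from RefSeq promoters or, failing that, from at least 3 circles inside the gene. No genome sequence was used, so bases at other ends were not read. Circles with at least 20 reads over the libraries were fitted in edgeR 4.0.16 (R 4.3.3) with TMM factors and a quasi-likelihood test, and p-values were adjusted by Benjamini-Hochberg over all tested circRNAs (threshold 0.05). DESeq2 1.42.0 was an alternative. An SE is the absolute log2 change over the root of F. Python 3.11.15 and scipy 1.17.1 gave the rest, and the fit was tested on simulated data. An empty library allows 3 reads by counting error, which in CPM is 3.30 and 3.07 (IL-1β) or 2.57 and 2.46 (controls). The alternatives were other scalings, read filters, tolerances, gene sets, a replicate block and each library left out.

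Named circRNAs were the 10 most read, the 6 with the lowest p in each direction, the 6 gene pairs with the most reads, the 4 genes with the most crossing circles and the 4 longest with 20 reads, each beside its most-read neighbours. Others named, the printed ends and the genes mostly in crossing circles were chosen after their values were seen. The members and lists were chosen with earlier results of these data known.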

Additional observations from a re-analysis of the deposited data

How the results depend on the processing

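By edgeR no boundary-crossing circRNA and no summed locus was called under RLE factors, library totals only, depth from SRPBM, filters of 10, 50 and 1 reads, a replicate block, each library left out (0 to 0 calls), tolerances of 10 and 100 bp, coding genes only or, for circRNAs, junctions within 5 nt summed. DESeq2 called 1 circRNA and 2 loci. Under the replicate block 1 circRNA and 4 loci had an unadjusted p under 0.05, against 2 and 6 without it. The labels give no pairing of the libraries. Deviations of same-numbered libraries from their group means had a correlation of -0.034 over 3100 circRNAs. With 2 libraries per group this cannot decide whether they were paired. The difference in the share of reads reversed to -0.0015 percentage points without IL-1β replicate 1, in a range up to 0.0559 over the libraries left out. The number of crossing circles was 853 with no tolerance, 838 with 10 bp and 807 with 100 bp, but 136 with at least 20 reads and 164 when read in at least 2 libraries. Depth from SRPBM moved the median log2 change of all circRNAs to -0.282. The comparisons with circles inside genes kept their direction under tolerances of 10 and 100 bp and coding genes only, alternatives chosen after seeing the data.

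Directions reversed 14 times among the alternatives for the 25 named circRNAs, none of them a called one. Over the libraries left out, the log2 change ran from -1.158 to 0.15 for circRNA.16481, -0.57 to 1.38 for circRNA.31812, -2.71 to 1.501 for circRNA.32318, -0.50 to 0.0047 for circRNA.33055, -0.43 to 0.65 for circRNA.39255, -0.92 to 0.55 for circRNA.40506 and -0.43 to 0.29 for circRNA.40510. For circRNA.39255 the sign turned without IL-1β replicate 1 (-0.43) and without control replicate 2 (-0.38), and for circRNA.40510 without control replicate 2 (0.0622). With depth from SRPBM it was -0.22 for circRNA.39255 and -0.0334 for circRNA.40505, with junctions within 5 nt summed -0.20 for circRNA.39255, with library totals only 0.014 for circRNA.40510 and with at least 50 reads 0.0054 for circRNA.40510. The cause was not tested. With 713 of 849 circles under 20 reads, most members have no test.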
